A study of Mus musculus with 16 samples.

Results

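The insulin-like growth factor (IGF) system was described here through 10 genes of the 49671 in the deposited tables. They were 2 growth factors (Igf1, Igf2), 2 receptors (Igf1r, Igf2r), 4 binding proteins (Igfbp2, Igfbp3, Igfbp4, Igfbp5), the imprinted non-coding RNA H19 and the imprinted transmembrane protein Dlk1. These genes were chosen with their levels in these data known, from the way they differed between kinds of cells, so their differences between kinds of cells are a description and carry no test. The libraries were CEL-Seq2 libraries of single cells from mouse dorsal root ganglia, the clusters of sensory neurons beside the spinal cord, with 96 wells a library. The 10 libraries of embryonic day 15.5 (e15.5) came from PvtdTom embryos, in which the parvalbumin promoter drives the fluorescent protein tdTomato, and their cells were sorted by flow cytometry. The 6 libraries of postnatal day 1 (p1) came from the lines Trpv1Cre; PvFlp; Ai65 and PvCre; Ai14, and their cells were picked by hand. PvCre; Ai14 labels proprioceptors in general. Trpv1Cre; PvFlp; Ai65 labels only a subset, which the study links to back muscles, and gave the larger share of the p1 cells. The study's methods name 2 Trpv1Cre lines, Trpv1Cre-Basbaum and Trpv1Cre-Hoon, each combined with PvFlp; Ai65, and the labels do not tell which line a library came from. Thoracic and lumbar ganglia were dissected separately in the study, with equal numbers of cells sequenced from each at both ages. The segmental level of a library is not in the labels. No library carried a treatment or a mutation of an IGF gene, and parvalbumin also marks a few cutaneous mechanoreceptors.

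Igf1 and Igf2 are secreted growth factors that act through the receptor tyrosine kinase encoded by Igf1r, while Igf2r takes up Igf2 and delivers it for breakdown. The binding proteins hold the factors outside the cell, and proteases such as those encoded by Pappa and Pappa2 release them, which the stanniocalcins Stc1 and Stc2 oppose. Igf2 and H19 are neighbours under shared imprinting control, with Igf2 read from the paternal and H19 from the maternal chromosome, and in embryos they are known for high levels in mesenchyme; Dlk1 is a paternally read gene of another imprinted region.

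In the GRCm38 annotation H19 lies on chromosome 7 from 142575529 to 142578143 and Igf2 on the same strand from 142650766 to 142666816, with 72622 bp between them. Both genes host a microRNA, printed here because these transcripts gave the highest counts among the members in e15.5 connective tissue. The mature forms are given from RefSeq (GRCm38.p6), with the seed, bases 2 to 8, in capitals, and none of the 4 seeds is shared.
mmu-miR-675-5p (H19): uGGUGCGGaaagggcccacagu
mmu-miR-675-3p (H19): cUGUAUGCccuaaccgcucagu
mmu-miR-483-5p (Igf2): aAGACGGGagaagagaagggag
mmu-miR-483-3p (Igf2): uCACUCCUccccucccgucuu
The counts below are those of the long transcripts and not of the microRNAs.

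The 250 bases before the RefSeq start are printed for 4 members that stand for the patterns described below, namely both receptors, found in every class of cell, Igfbp4, found at a high level in connective tissue, and Igfbp5, found in connective tissue and unevenly among neurons. Capitals mark the letters GGGCGG, known as the GC box. They also mark the letters TATAAA, known as the TATA box. Both strands were searched. Of 32851 promoter windows of this length in the RefSeq table, 32.7% held the GC box and 12.4% the TATA box. The Igf1r window (chr7:67952007-67952256, plus strand) held 2 GC boxes.
Igf1r: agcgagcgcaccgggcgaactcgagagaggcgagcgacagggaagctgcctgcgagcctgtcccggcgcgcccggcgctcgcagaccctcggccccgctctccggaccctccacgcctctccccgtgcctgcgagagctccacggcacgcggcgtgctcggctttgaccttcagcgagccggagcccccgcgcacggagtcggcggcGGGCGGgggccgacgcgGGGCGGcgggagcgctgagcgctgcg
The Igf2r window (chr17:12769707-12769956, minus strand) held 3.
Igf2r: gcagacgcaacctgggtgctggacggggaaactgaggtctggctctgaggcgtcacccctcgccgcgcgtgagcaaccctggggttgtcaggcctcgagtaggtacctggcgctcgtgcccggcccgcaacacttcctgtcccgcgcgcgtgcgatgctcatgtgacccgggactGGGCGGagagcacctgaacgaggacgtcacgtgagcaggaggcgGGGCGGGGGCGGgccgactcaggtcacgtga
The Igfbp4 window (chr11:99040994-99041243, plus strand) held a TATA box beginning 28 bases before the start, the only TATA box found in a window of the members, and no GC box.
Igfbp4: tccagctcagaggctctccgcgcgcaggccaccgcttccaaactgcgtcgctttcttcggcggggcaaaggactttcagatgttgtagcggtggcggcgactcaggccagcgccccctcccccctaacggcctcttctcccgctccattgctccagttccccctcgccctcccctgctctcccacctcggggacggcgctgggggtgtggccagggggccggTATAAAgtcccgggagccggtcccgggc
The Igfbp5 window (chr1:72874866-72875115, minus strand) held neither.
Igfbp5: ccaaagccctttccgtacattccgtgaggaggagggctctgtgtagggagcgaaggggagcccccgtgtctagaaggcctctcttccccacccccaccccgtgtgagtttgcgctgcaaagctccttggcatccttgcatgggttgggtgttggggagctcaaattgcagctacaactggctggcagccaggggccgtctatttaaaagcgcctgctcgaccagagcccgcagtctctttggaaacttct
Igfbp2 and Igfbp5 lie end to end on chromosome 1, on opposite strands and 5457 bp apart. The windows for Igf1, Igfbp3 and Dlk1 also held neither motif, 1 of the Igfbp2 windows held 3 GC boxes, 2 of the 4 Igf2 windows held 1 or 2, and H19 was not matched in the RefSeq table.

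A level is given in CPM, the UMIs (unique molecular identifiers, each standing for 1 captured transcript) of a gene per 1000000 UMIs of the summed wells. CEL-Seq2 counts a transcript at its 3′ end, so that length enters little, but capture differs between genes, and levels are compared within a gene. Totals were 3701900 to 9299431 UMIs a library at e15.5 and 386517 to 8814472 at p1. Wells with at least 10000 UMIs were kept, 871 of 960 at e15.5 and 369 of 576 at p1, where 1 library kept 12 wells. They were put in classes by the summed levels of fixed marker genes. At e15.5, 345 were connective tissue wells (collagens, Lum, Dcn, Pdgfra), 273 were proprioceptor-like (Pvalb, Runx3, Etv1, Ntrk3), 86 were other neurons, and 92 held glial transcripts together with neuronal ones (median of the neuronal markers 8213 CPM). A further 75 wells fitted no class. The 369 wells of p1 held 278 proprioceptors, 71 glial wells, 6 other neurons, 13 unassigned wells and 1 connective tissue well, so connective tissue could be described at e15.5 alone.

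At e15.5 the growth factor Igf2 was highest in connective tissue among the named classes of wells. Its level there was 11112 CPM, with 9601 in the lowest, 10618 in the median and 14094 in the highest of the 9 libraries with at least 3 such wells. In proprioceptors it ranged from 7.71 to 99.0 CPM over 10 libraries, and in other neurons from 9.09 to 149 over 7. Glial wells lay between, at 446 CPM and 234 to 1459 over 10 libraries. All 345 connective tissue wells and all 92 glial wells held Igf2. Within a library the connective tissue level exceeded the proprioceptor level in 9 of 9 libraries, by 101-fold to 1588-fold.

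H19, the non-coding neighbour of Igf2, showed the same order of classes. It reached 8057 CPM in connective tissue, from 5877 to 11563 over libraries, against 20.3 to 243 in proprioceptors. In glial wells it was at 785 CPM, from 438 to 2795 over libraries. The ratio of H19 to Igf2 UMIs in connective tissue was 0.575 to 0.837 over the 9 libraries. Across single connective tissue wells the 2 transcripts varied together, with a Pearson r of 0.65 to 0.92 in the 8 libraries with at least 10 such wells. These correlations were taken on log2(CPM + 10), and wells of a library share its preparation.

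Dlk1, which encodes a membrane protein with epidermal growth factor-like repeats, was also highest in connective tissue but varied most among libraries. Its levels there, in the order of libraries 1 to 8 and 10, were 1008, 1113, 2633, 491, 1441, 4665, 5110, 6950 and 360 CPM. Libraries 6, 7 and 8 were high, and library 10, with 5 connective tissue wells, was lowest. In proprioceptors Dlk1 ranged from 3.40 to 108 CPM and no library reached the connective tissue range. Unlike the Igf2 and H19 pair, Igf2 and Dlk1 had an r of -0.43 to 0.00 across connective tissue wells within a library.

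Hoxc10, a homeobox gene of the posterior part of the body axis, was counted beside Dlk1 because libraries 6, 7 and 8 were high in both. In connective tissue it stood at 158, 191 and 212 CPM in libraries 6, 7 and 8, at 151 in library 10, and at 9.49 to 13.2 in libraries 1 to 5. Pooled over libraries, Dlk1 was at 4801 CPM in the 198 connective tissue wells with a Hoxc10 UMI and at 1164 in the 147 without. Within a library, wells with Hoxc10 had the higher Dlk1 level in 2 of 4 libraries that held at least 3 wells of each kind. The pooled difference was thus not repeated in every library. In libraries 1 to 5 the connective tissue wells held only 7 to 17 Hoxc10 UMIs a library. Whether a well there holds a Hoxc10 UMI depends largely on counting, so the split cannot settle whether wells of a library differ.

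**Figure D1:**
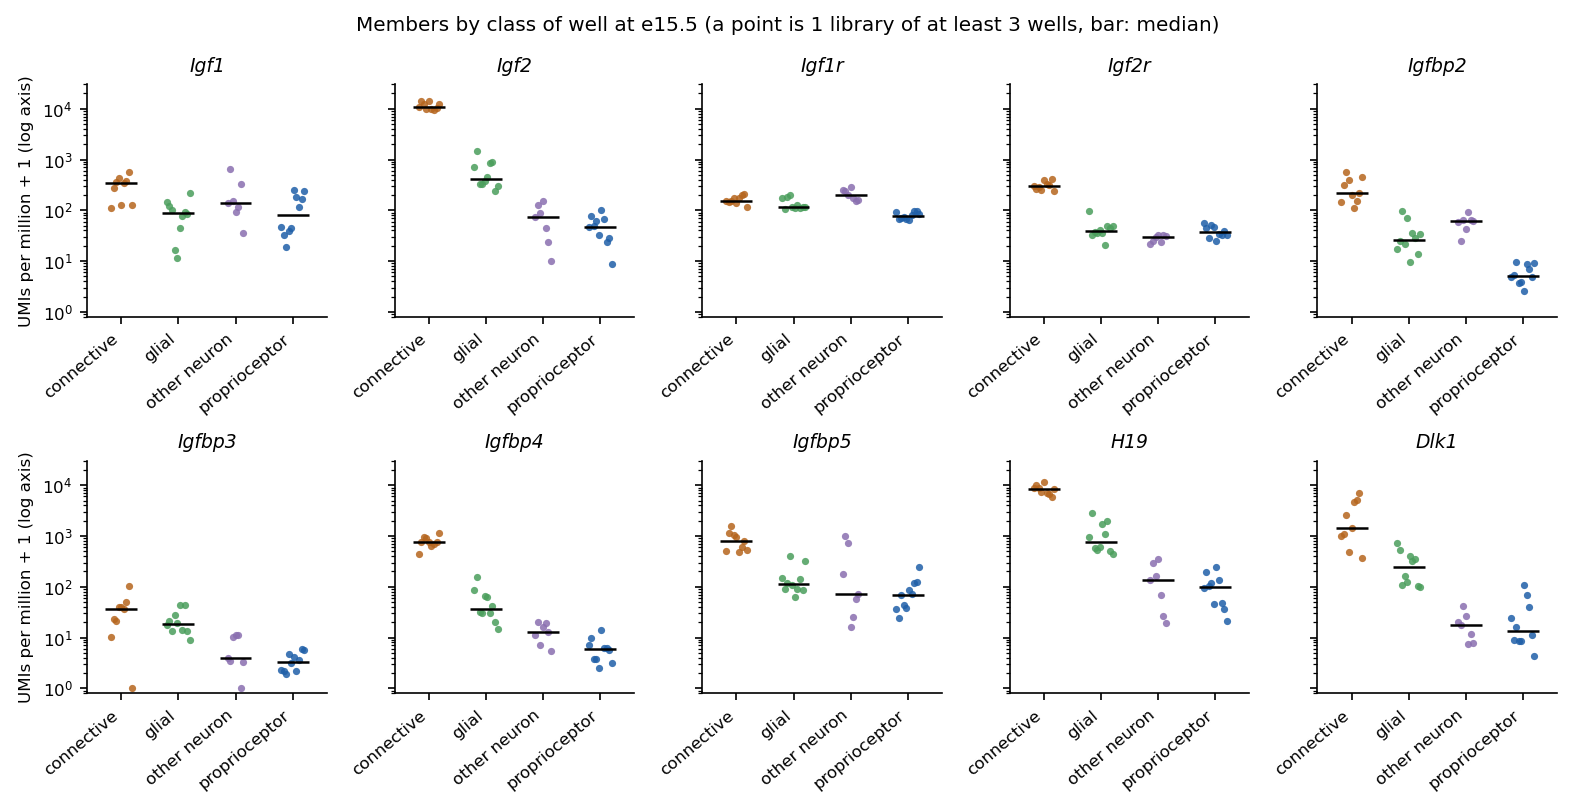
Level of each member in the 4 classes of wells at e15.5, as CPM plus 1 on a log axis. A point is 1 library with at least 3 wells of the class and a bar the median of libraries. Igf2, H19, Igfbp4 and Dlk1 in connective tissue sit above every proprioceptor library, Igf1 overlaps between the classes, and Igf1r stays within a narrow range.

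Igf1 and the sparse Igfbp3 were the members whose levels overlapped between connective tissue and proprioceptors. For Igf1, connective tissue libraries ranged from 109 to 557 CPM and proprioceptor libraries from 18.0 to 252. In 8 of 9 libraries the connective tissue level was the higher one, and in library 10 the proprioceptors stood at 240 and the connective tissue at 126 CPM. Among the 86 other neurons, Igf1 was found at 248 CPM in the 68 wells in which mechanoreceptor markers (Ntrk2, Maf, Ret, Mafa) exceeded nociceptor markers. It was at 1.80 CPM, 2 UMIs in all, in the other 18 wells. The 68 wells ranged from 44.1 to 726 CPM over 7 libraries, and only 2 libraries held at least 3 of the 18. The top 10% of the 86 wells held 86.1% of their Igf1 UMIs, and the median well held none. Igfbp5 stood at 271 CPM in the 68 wells and at 354 in the 18. Igf1 and Igf2 had an r of -0.17 to 0.17 among connective tissue wells within a library.

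The receptor genes were found in every class. Igf1r, the signalling receptor, stood at 171 CPM in connective tissue (117 to 212 over libraries), 137 in glial wells (103 to 195), 197 in other neurons (149 to 288) and 82.0 in proprioceptors (63.4 to 95.8). Proprioceptors were thus lowest, and no proprioceptor library reached a connective tissue library, by a margin of 95.8 to 117 CPM that closed when the mitochondrial limit of the study was added. The glial, connective tissue and other neuron libraries overlapped. Igf2r, the clearance receptor, was at 309 CPM in connective tissue (243 to 406), against 37.6 in proprioceptors (24.0 to 54.6), 42.7 in glial wells and 27.2 in other neurons. The non-coding Airn runs over Igf2r on the opposite strand and held 15.2% as many UMIs over all wells. The sources used here do not say whether counting used strand, so reads of the pair may not be fully separated.

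Among the binding proteins, Igfbp4 was the most closely tied to connective tissue. It stood at 731 CPM there (445 to 1138), at 38.9 in glial wells, at 11.5 in other neurons and at 4.45 in proprioceptors (1.505 to 13.1), and 344 of 345 connective tissue wells held it. Igfbp2 stood at 242 CPM in connective tissue (110 to 576), 65.6 in other neurons (24.2 to 90.2) and 5.34 in proprioceptors (1.55 to 8.54), so other neurons lay between them. Igfbp5 stood at 815 CPM in connective tissue (475 to 1544) and 113 in proprioceptors (23.1 to 240). Igfbp3, the main carrier in serum, was sparse, with 38.0 CPM in connective tissue and 0 to 101 over libraries. Its level in proprioceptors, 3.06 CPM, rested on 99 UMIs in 273 wells.

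Counted over the members, 8 of 10 had connective tissue libraries that lay wholly above the proprioceptor libraries, the exceptions being Igf1 and Igfbp3. Of all 16983 genes with a median of at least 1 CPM in either class, 14% did so and 19.3% did the reverse, and since the members were chosen on this contrast nothing is read from their count. The 9 and 10 libraries are the units here. A level here is a share of the UMIs of the summed wells, so less RNA of a member and more RNA of other genes cannot be told apart.

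Connective tissue wells were not uniform. The 73 wells with tendon markers (Tnmd and Scx at 200 CPM or more) had Igf2 at 9552 CPM, against 11512 in the others, and were lower in 5 of 6 libraries. H19 was at 6182 and 8538 CPM and was also lower in 5 of 6. Igf1 was at 399 and 316 CPM and was higher in 4 of 6. In the 77 wells with proliferation markers at 1000 CPM or more, Igfbp4 was at 565 CPM against 791 and was lower in 8 of 8 libraries, and Igf1r was lower in 7 of 8. Igfbp5 was found in 56.2% of tendon-marker wells and 89.0% of the others, at median depths of 29668 and 27950 UMIs.

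Of the unassigned wells, 34 held both connective tissue and glial markers and differed from connective tissue wells in their binding proteins. Igfbp2 was at 2592 CPM (1389 to 3935 in the 3 libraries with at least 3 such wells) and Igfbp5 at 2627 (658 to 4182). Each pooled value was above the pooled connective tissue level, though the lowest Igfbp5 library was under it. Of the Igfbp5 UMIs of all 75 unassigned wells, 51.5% lay in 5 wells, and of the Igfbp2 UMIs 41.0%. Igfbp4 went the other way, at 229 CPM against 731. Igfbp3 was at 108 CPM. Igf2 was at 11875 CPM pooled and at 6607 to 15556 over the 3 libraries, against 9601 to 14094 in connective tissue. Igf2r at 86.9 and Dlk1 at 363 CPM were under the pooled connective tissue levels. For Dlk1 the pooled value was at the low end of the connective tissue libraries (360 to 6950). In these wells the collagen gene Col1a2 was at 8345 CPM, the glial genes Apoe and Sox10 at 1358 and 206, and the endothelial genes Pecam1 and Cldn5 at 0. Whether a well held 1 cell with both sets of transcripts or 2 cells was not tested.

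Levels in proprioceptors were set beside those of the collagens Col1a1, Col1a2 and Col3a1, which are made by connective tissue. In pooled proprioceptor wells they stood at 0.231%, 0.262% and 0.352% of their connective tissue level. The limit set on connective tissue markers for a proprioceptor well (under 1000 CPM) keeps these values low. Igf2 was at 0.320%, which is among the collagens, Igfbp4 at 0.608%, Dlk1 at 0.676% and H19 at 0.886%. Igfbp2 was at 2.21%, Igfbp3 at 8.04%, Igf2r at 12.2%, Igfbp5 at 13.9%, Igf1 at 40.8% and Igf1r at 48.0%.

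**Figure D2:**
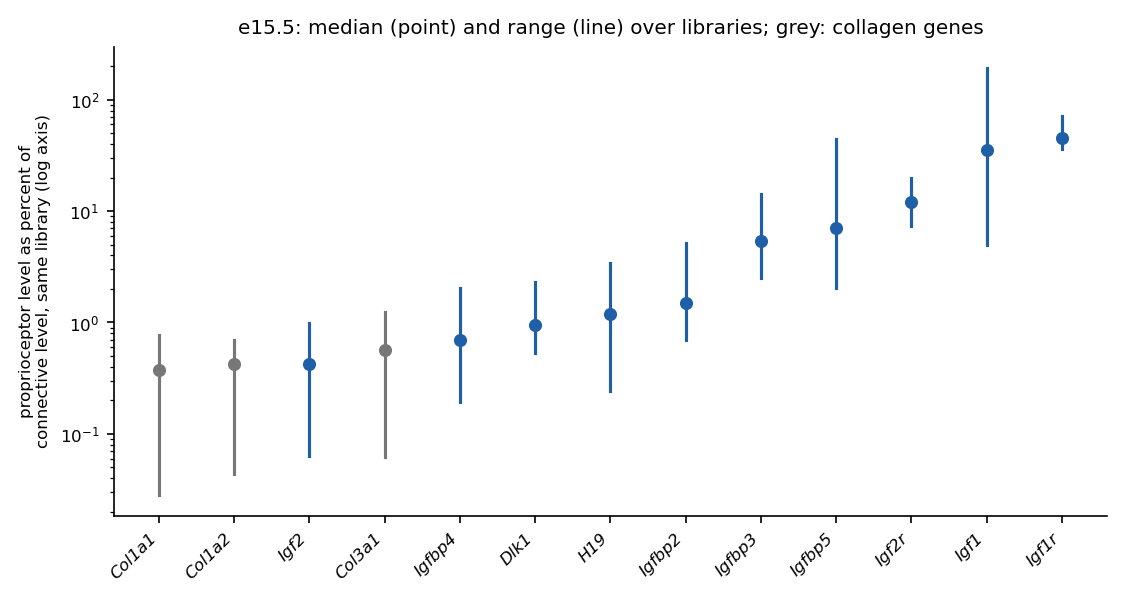
Level in proprioceptors as a percent of the level in connective tissue of the same e15.5 library, on a log axis, with the median (point) and range (line) over libraries. The collagens are grey. Igf2 lies at the collagens, Igfbp4, Dlk1 and H19 lie just above them, and Igf1r and Igf1 lie highest.

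Proprioceptor wells were then split by their connective tissue markers. In the 113 wells with connective tissue markers under 50 CPM, Igf2 was at 11.7 CPM and H19 at 24.6, against 53.6 and 107 in the 160 wells at or above 50 CPM. Dlk1 was at 10.1 and 29.5 CPM, Igfbp4 at 2.93 and 5.60 and Col1a2 at 9.09 and 63.3 in these wells. Pooled, Igf1 and Igfbp5 were at 185 and 175 CPM in the wells low in connective tissue markers and at 98.0 and 66.1 in the rest. Of the 4 libraries with at least 3 wells of each kind, a count added after seeing the data, Igf1 was higher in the low wells in 2 and Igfbp5 in 3, so the pooled gap of Igf1 was not repeated within libraries. In the same libraries Igf2, H19 and Igfbp4 were lower in the low wells in 3 of 4 and Dlk1 in 2 of 4, and at p1 Igf2 and H19 in 5 of 6. Igf1r was at 86.0 and 78.9 CPM. Low levels of Igf2 and H19 in neurons thus moved with connective tissue transcripts in most libraries, whose part in each value was not tested.

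Proprioceptor wells were then compared between the ages, over libraries summed across at least 5 wells (10 at e15.5 and 6 at p1, quasi-likelihood test of edgeR, p-values adjusted by Benjamini-Hochberg over 12670 genes). Age, mouse line, the kinds of proprioceptor a line labels and the way cells were collected differ together between these libraries and cannot be told apart. Of the 10 members 9 passed the filter on low counts, Igfbp3 being the exception. Of these, 5 were lower at p1 and 1 was higher. Of all genes 31.8% were lower and 30.8% higher, 62.6% together. Dlk1, Igfbp2 and Igfbp4 passed the filter through their e15.5 libraries, which leaves a fall as the direction open to them. Igf2 and H19, at 0.800 to 8.57 and 1.51 to 14.9 CPM over p1 libraries, also passed through their e15.5 libraries. This largely sets the direction of Igf2 and H19, so nothing is read from the count.

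Igf2, H19 and Dlk1 fell most. Igf2 in proprioceptors stood at 45.3, 76.8, 47.4, 60.1, 31.4, 99.0, 67.2, 22.98, 27.7 and 7.71 CPM in e15.5 libraries 1 to 10 and at 6.05, 1.17, 7.45, 3.37, 8.57 and 0.800 in p1 libraries 1 to 6. The ages overlapped only at e15.5 library 10 and p1 library 5. The log2 fold change was -3.20 ± 0.54 (SE), with an edgeR adjusted p of 3.37e-05. H19 fell by 3.73 ± 0.59 on the log2 scale (edgeR adjusted p = 1.75e-05), from 20.3 to 243 CPM over libraries at e15.5 to 1.51 to 14.9 at p1, with no overlap. Dlk1 went from 3.40 to 108 CPM over e15.5 libraries to at most 1.44, with 8 UMIs left in 278 wells. Across all genes with a median of at least 1 CPM at either age, 16.2% had every p1 library below every e15.5 library and 5.76% had every one above. In wells with connective tissue markers under 50 CPM, a choice made after seeing the data, Igf2 still fell by 3.01 and H19 by 3.11 (edgeR adjusted p = 5.18e-05 and 7.71e-05). In those wells Col1a2 went from 9.09 to 2.86 CPM. The e15.5 libraries with enough such wells for a sum may be fewer than the 10 of the main test.

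Igfbp2 and Igfbp4 were low in proprioceptors at both ages, with 1.55 to 8.54 and 1.505 to 13.1 CPM over e15.5 libraries and 0 to 2.68 and 0 to 1.61 over p1 libraries, which overlap. They were left at 24 and 23 UMIs over all p1 proprioceptors. With no filter on low counts, where 30989 genes were tested, Dlk1, Igfbp2 and Igfbp4 were called lower at p1 (-5.83, -1.91 and -1.96 on the log2 scale, edgeR adjusted p = 3.48e-07, 0.000349 and 0.000539).

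Igf1r was the member that rose, by 0.32 ± 0.13 (edgeR adjusted p = 0.0390), with 63.4 to 95.8 CPM at e15.5 and 59.6 to 107 at p1. The ranges overlapped, and the call was lost without any 1 of 9 libraries (e15.5 libraries 2 to 7, p1 libraries 1, 2 and 6), with adjusted p-values of 0.0507 to 0.154, and in wells low in connective tissue markers (log2 fold change 0.19, adjusted p = 0.328). Igf2r was 0.37 ± 0.17 higher at p1 and missed the threshold (edgeR adjusted p = 0.0628). Without e15.5 library 1, 4 or 5 or p1 library 2 or 5 it passed, with adjusted p-values of 0.0268 to 0.0486.

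Igf1 and Igfbp5 did not pass at p1 either, with log2 fold changes of -1.23 ± 0.55 and -0.97 ± 0.45 (edgeR adjusted p = 0.0561 and 0.0636). Igf1 stood at 46.6, 30.9, 18.0, 38.8, 44.3, 252, 185, 115, 164 and 240 CPM in e15.5 libraries 1 to 10. At p1 it stood at 14.0, 44.6, 59.6, 16.9, 94.2 and 32.0. Libraries 1 to 5 of e15.5 thus lay within the p1 range and libraries 6 to 10 above it. The Igf1 call was made without any 1 of e15.5 libraries 1 to 5 or p1 library 5, with adjusted p-values of 0.0146 to 0.0439. Igfbp5 was called without e15.5 library 1, 2 or 5 or p1 library 5 (0.0299 to 0.0440). In wells low in connective tissue markers both were called in edgeR, Igf1 with -1.51 (adjusted p = 0.0417) and Igfbp5 with -1.49 (0.0224). Only 4 e15.5 libraries held at least 3 wells on each side of that marker limit. The e15.5 libraries behind these calls may thus differ from those of the main test, and their part in the calls was not tested.

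**Figure D3:**
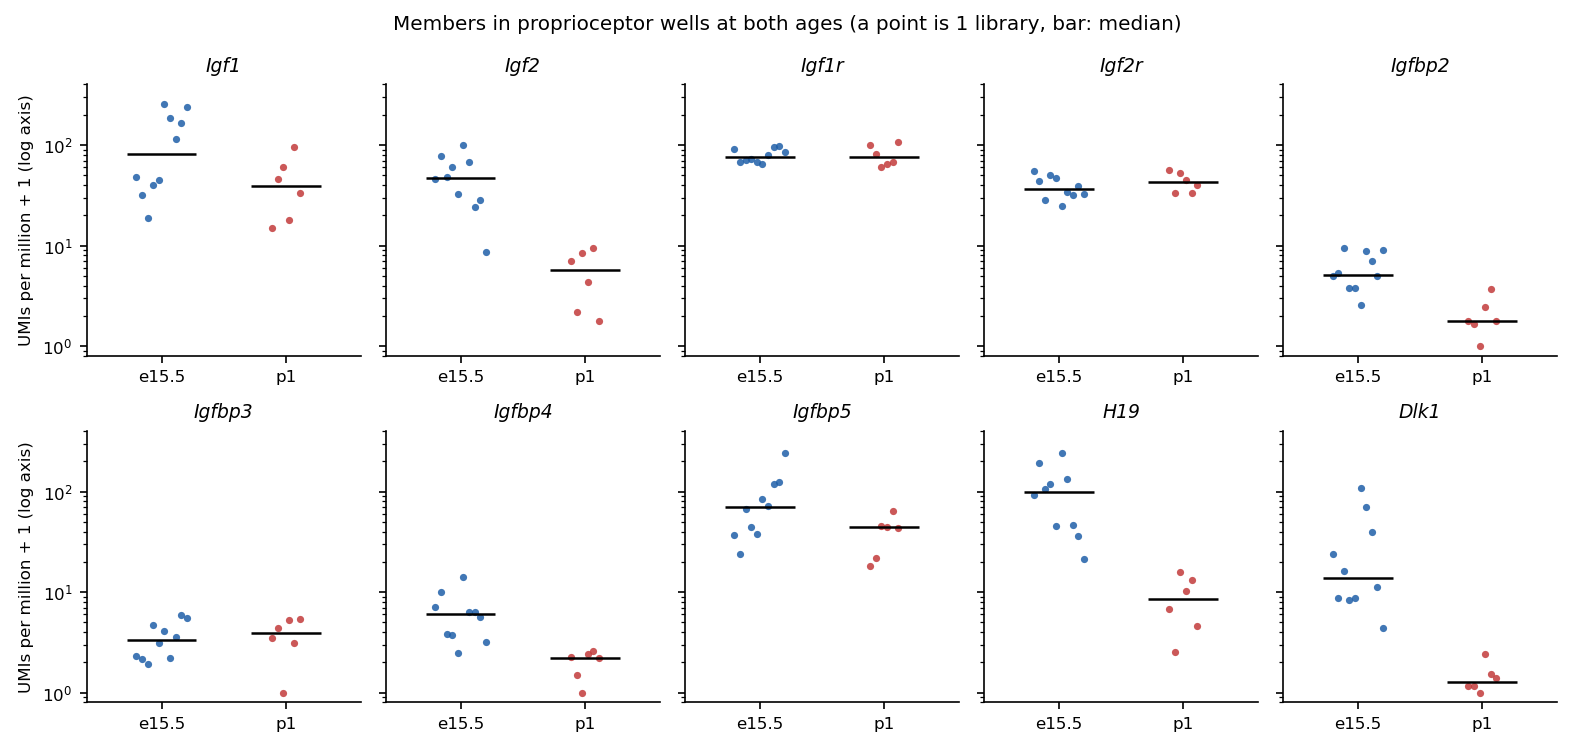
Level of each member in proprioceptor wells at e15.5 and p1, as CPM plus 1 on a log axis. A point is 1 library (10 at e15.5 and 6 at p1) and a bar the median. H19 and Dlk1 do not overlap between the ages, Igf1r and Igf2r overlap widely, and Igf1 spreads widely at e15.5.

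Genes that act around the members were taken from a list of 46, chosen with earlier results of these data known. Between the ages 34 were tested, of which 12 were higher and 12 lower at p1, shares near the 30.8% and 31.8% of all genes, with a median log2 fold change of -0.06 against -0.03 over all genes. Among the proteases that release IGF from its binding proteins, Pappa, which cleaves Igfbp4, rose by 3.98 ± 0.34 (edgeR adjusted p = 3.78e-09), from 0.773 to 49.0 CPM over e15.5 libraries to 231 to 434 over p1 libraries, without overlap. Htra1, a secreted serine protease, rose by 2.46 ± 0.42 (4.23e-05). Pappa2, a relative of Pappa, went down by a log2 fold change of -0.88 ± 0.31 (0.0175), and Stc2, an inhibitor of Pappa, by -3.44 ± 0.46 (2.28e-06). Stc2 was at 0 to 1.93 CPM over p1 libraries and passed the filter on low counts through its e15.5 libraries. A fall was thus the direction open to it. Igfbp4 itself, a substrate of Pappa, was near 0 in these neurons at p1, as given above.

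The 3 binders of Igf2 mRNA were all lower at p1. Igf2bp3 fell by 2.86 ± 0.42 and Igf2bp1 by 2.82 ± 0.44 (edgeR adjusted p = 7.37e-06 and 1.59e-05). At p1 they were at 0 to 3.37 and 0 to 1.44 CPM over libraries. Both passed the filter on low counts through their e15.5 libraries, which leaves a fall as the direction open to them. Of 11 imprinted genes tested, 5 were higher and 5 lower. Cdkn1c, an inhibitor of the cell cycle, fell by 4.57 ± 0.18 (7.10e-14), from 97.0 to 148 CPM to at most 7.495. Cdkn1c too passed the filter through its e15.5 libraries, which largely sets its direction. Meg3, the maternally read non-coding RNA 77664 bp from Dlk1, rose by 1.72 ± 0.14 (3.59e-09), from 3921 to 5984 CPM to 9477 to 18432. Dlk1, its neighbour in the same imprinted region, went from 3.40 to 108 CPM over e15.5 libraries to at most 1.44. A fall was the direction open to Dlk1, as given above, so the directions of the pair are not read against each other. Of 15 genes of receptors and signalling, 5 were higher and 2 lower, with Pik3r1, a regulatory subunit of PI3-kinase, highest at 1.39 ± 0.21 (7.14e-06). The insulin receptor gene Insr was slightly lower (-0.30 ± 0.10, 0.0161).

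Between e15.5 connective tissue and proprioceptors, 23 of 37 tested list genes were higher and 7 lower in connective tissue. Of all 11846 genes, 40.3% were higher and 40.1% lower, 80.4% together. The median log2 fold change was 1.03 over the list and 0.01 over all genes. Given how the list was chosen, nothing is read from its counts or its median. Htra1 (5.84 ± 0.29 on the log2 scale, edgeR adjusted p = 6.02e-15), Grb10, an imprinted adaptor that dampens IGF signalling (5.35 ± 0.12, 1.16e-20), Airn (4.85 ± 0.28, 7.19e-14) and Igfbp7 (4.73 ± 0.28, 1.29e-13) were higher in connective tissue. Grb10 stood at 711 to 1169 CPM there and at 18.0 to 29.0 in proprioceptors. The proprioceptors were higher in Pappa2 (-5.20 ± 0.37, 4.31e-12), in Grb14, an adaptor related to Grb10 (-3.45 ± 0.21, 2.54e-13), in Stc2 (-3.17 ± 0.46, 9.28e-07) and in Mtor (-1.44 ± 0.12, 5.64e-11). The 2 adaptors thus changed places, Grb14 being at 105 to 196 CPM in proprioceptors and at 5.32 to 21.6 in connective tissue. Airn, Htra1 and Igfbp7 were low in proprioceptors, at most 3.52, 11.1 and 9.24 CPM over libraries. Stc2 and Pappa2 were low in connective tissue, at most 3.76 and 7.76 CPM. These genes passed the filter on low counts mainly through the class where they are high, which largely sets their direction. All 3 binders of Igf2 mRNA were higher in connective tissue, as Igf2 was. Igfbp1 and Igfals were not tested, with at most 6 UMIs in either class at e15.5.

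Igf1 and Igfbp5 varied widely from one proprioceptor to the next. After each e15.5 well was drawn down to 10000 UMIs, the variance over wells was 4.10 times the mean for Igf1 and 7.85 times for Igfbp5, against 1.09 for Igf1r and 1.12 for Igf2r, where counting alone gives a value near 1. These ratios include differences between libraries and grow with the mean. Within a library of at least 10 wells, a look added after seeing the data, the median ratio over 8 libraries was 2.80 for Igf1 and 4.32 for Igfbp5, against 0.981 for Igf1r and 1.49 for H19, with thinned means of 1.42, 0.790, 0.802 and 1.05 UMIs. The top 10% of wells held 57.0% of the Igf1 UMIs and 70.7% of the Igfbp5 UMIs, against 24.6% of the Igf1r UMIs. The shares for the sparse Igfbp2 and Igfbp3 were 64.7% and 68.7%, from 173 and 99 UMIs in all. At p1 the ratios were 2.11 for Igf1 and 2.58 for Igfbp5. The 2 ratios of a gene rest on different means and are not compared.

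As counted, 207 of 273 e15.5 proprioceptor wells held an Igf1 UMI (75.8%, exact 95% interval 70.3 to 80.8) at a median depth of 119302 UMIs. Drawn down to 10000 UMIs the share was 43.2% (37.3 to 49.3), against 60.3% in connective tissue wells. At p1 it was 60.1% as counted and 27.3% drawn down. Each value is 1 random draw, and a second draw gave 43.2%, 58.6% and 25.2%. In the 18 e15.5 other neuron wells whose mechanoreceptor markers did not exceed their nociceptor markers, 11.1% held an Igf1 UMI at a median depth of 57043.5 UMIs, against 47.1% of the other 68 at 22544 UMIs. These intervals cover counting error only. With at least 5 UMIs as counted, 128 wells held Igf1, 94 held Igfbp5 and 61 held both at e15.5, which is 47.7% of the Igf1 wells and 64.9% of the Igfbp5 wells. Wells with both were deeper (median 137840 UMIs) than wells with neither (98938).

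Within a library the 2 genes had a median Pearson r of 0.20 across e15.5 proprioceptor wells, from -0.39 to 0.68 over 8 libraries, and of 0.07 at p1. The genes most like Igf1 by median r within libraries were Ntm (0.55), Fjx1 (0.54), Shf (0.46), Fgf1 (0.46), Opcml (0.45), Hes1 (0.44), Gm29865 (0.42), Spred1 (0.41), Pcdh10 (0.40) and Dgkg (0.39). For Igfbp5 they were Nell2 (0.44), Cdh7 (0.43), Cd24a (0.42), Fam89a (0.41), Prkg2 (0.40), Gm29865 (0.36), Reln (0.36), Dkk2 (0.35), Dsc2 (0.35) and Nmur2 (0.34). The lists share 1 gene. At p1 Ntm, which encodes a cell adhesion molecule, had a median r of 0.35 with Igf1 (0.01 to 0.41 over 5 libraries), while Fjx1 (-0.08) and Opcml (-0.10) had medians under 0, and for Igfbp5 no median at p1 was above 0.13. These are ranks among 15248 genes in sparse counts and carry no test.

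**Figure D4:**
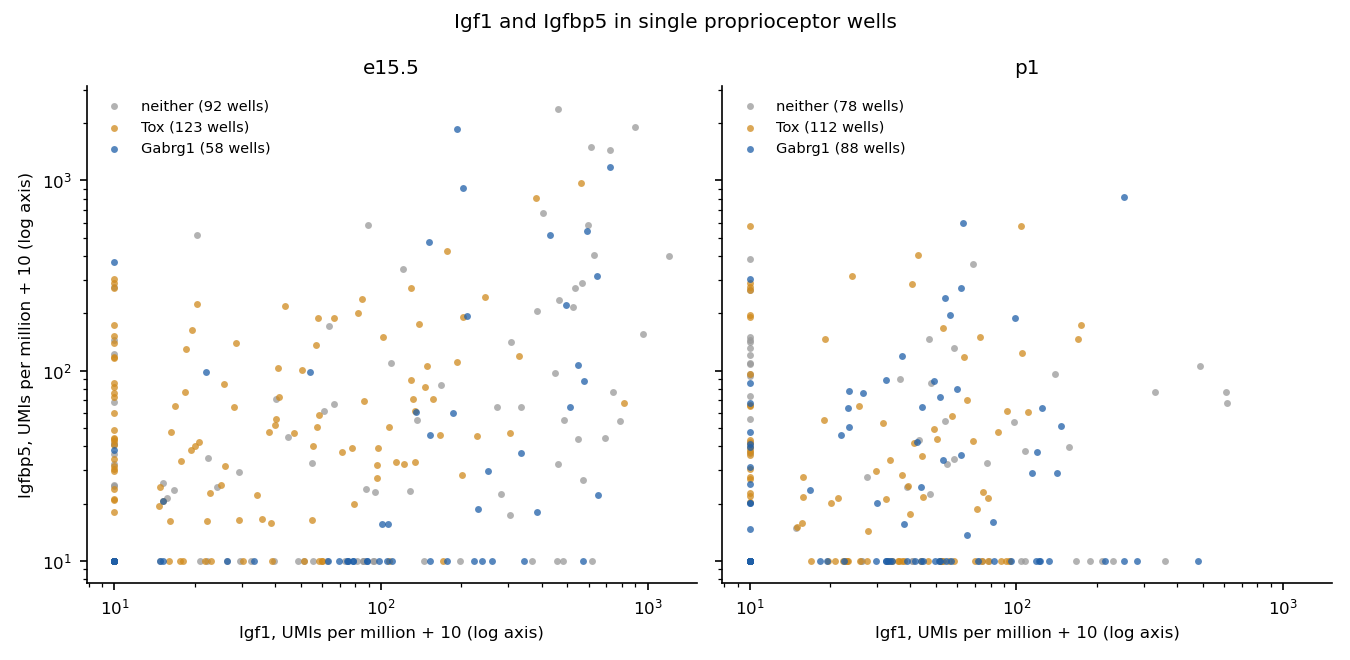
Igf1 against Igfbp5 in single proprioceptor wells at e15.5 (left) and p1 (right), as CPM plus 10 on log axes. Colours mark wells with more Gabrg1 than Tox UMIs, more Tox than Gabrg1, or neither. Wells high in both genes are found in all 3 groups at e15.5, and the wells of p1 reach lower levels of both genes.

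Proprioceptor wells were also split by Gabrg1 (a GABA receptor subunit) and Tox (a transcription factor), genes that mark groups of proprioceptors in the study. A well with more Gabrg1 than Tox UMIs counted as Gabrg1, the reverse as Tox. At e15.5 Igf1 stood at 201 CPM in 58 Gabrg1 wells, 60.5 in 123 Tox wells and 207 in 92 wells with neither. The libraries entered unequally, since Gabrg1 sums of at least 5 wells came from libraries 7 to 10 alone and Tox sums also from libraries 1, 2, 3 and 5, in which Igf1 was low. In the libraries with both sums, Igf1 stood at 140 (Gabrg1) and 68.2 (Tox) CPM in library 7, at 109 and 115 in library 8, at 172 and 91.0 in library 9 and at 326 and 74.0 in library 10. Gabrg1 wells were thus higher in 3 of 4. The log2 fold change was 1.75 ± 0.38 over all sums and 1.06 ± 0.26 with the library as a block, with no test, since Igf1 had marked a group of e15.5 proprioceptors in earlier results of these data.

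Igfbp5 ran the other way in most libraries. It was higher in Tox wells in libraries 7 (29.4 against 59.5 CPM), 8 (3.36 against 191) and 9 (24.2 against 58.4) and higher in Gabrg1 wells in library 10 alone (405 against 100). The log2 fold change was 0.70 ± 0.66 over all sums, -0.66 ± 0.80 with the library as a block, -2.09 without library 10 and 1.47 without library 8. At p1 Igfbp5 was higher in Tox wells in 3 of 3 libraries (-0.51 ± 0.45, edgeR adjusted p = 0.919). Among the other members of e15.5 none passed the threshold in edgeR, where 5.16% of 11733 genes did, with adjusted p-values of 0.323 to 0.9498 over the 7 tested. Igf2r was lower in Gabrg1 wells in 4 of 4 libraries at e15.5 and in 3 of 3 at p1 (-0.36 ± 0.18 and -0.31 ± 0.24, edgeR adjusted p = 0.323 and 0.885).

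At p1 the Gabrg1 contrast of Igf1 was 0.87 ± 0.49 (edgeR adjusted p = 0.743), in a test that called 0.973% of 10786 genes, 0.686% higher and 0.287% lower in Gabrg1 wells. Igf1 was at 9.59 and 14.6 CPM (Gabrg1, Tox) in library 1, at 11.3 and 19.1 in library 4 and at 95.6 and 33.3 in library 5, so that 1 of 3 libraries had it higher in Gabrg1 wells. None of the 5 members tested passed at p1 in edgeR, and none had an unadjusted p under 0.05. Without a filter on low counts Igf1 was called there (0.85, adjusted p = 0.0492). None of the 7 other members tested passed the edgeR test of the difference of this contrast between the ages, nor had an unadjusted p under 0.05. Nothing is read from that test for Igf1 and Igfbp5, which were chosen with their e15.5 contrast known. The test called 0.235% of 12319 genes, 0.162% with a higher and 0.0731% with a lower contrast at p1.

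Of 33 list genes tested at e15.5, 5 were higher and 3 lower in Gabrg1 wells, where 2.82% and 2.34% of all genes were. The list was chosen with earlier results of these data known, so nothing is read from these counts. Pappa2 was higher by 1.88 ± 0.14 (edgeR adjusted p = 5.72e-07) and Stc2 lower by a log2 fold change of -3.10 ± 0.40 (0.000109), and Grb14 was higher by 0.97 ± 0.13 (0.000210). Stc1 (1.36 ± 0.31, 0.0137), Shc1 (0.68 ± 0.19, 0.0408) and Pik3r1 (-0.76 ± 0.18, 0.0148) passed as well, but not with the library as a block (0.0645, 0.166 and 0.0620). Plagl1, an imprinted zinc finger gene, was lower (-0.81 ± 0.19, 0.0135), a call lost without library 8 (0.117). Stc1 lost its call without library 9 or 10 (0.0788 and 0.0780), Pik3r1 without library 7 (0.0504) and Shc1 without any 1 of 7 libraries, all but library 7 (0.0645 to 0.118). At p1 Stc1 (3.90 ± 0.55, 0.00238) and Pappa2 (1.45 ± 0.26, 0.0133) were the 2 list genes called of 31, both higher in Gabrg1 wells as at e15.5. Pappa2 was not called without p1 library 2 or 5 (0.0857 and 0.184).

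The spread of Igf1 among e15.5 proprioceptor libraries was set beside Hoxc10, as for Dlk1. Hoxc10 in these wells stood at 54.6, 1.96, 37.9, 3.70, 17.2, 138, 126, 130, 114 and 145 CPM in libraries 1 to 10. The 5 libraries with Hoxc10 above 100 CPM were the 5 with Igf1 above 100 CPM. At p1 Hoxc10 stood at 5.12, 51.3, 29.8, 4.82, 58.9 and 77.6 CPM in libraries 1 to 6, and libraries 1 and 4, lowest in Hoxc10, were also lowest in Igf1 (14.0 and 16.9 CPM). The study used Hoxc10 to check the lumbar origin of its cells. Labels give no segmental level of a library, and no groups were made from these values. Whether segmental level underlies the spread of Igf1 was not tested.

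Between wells of a library the values went another way. Pooled, Igf1 stood at 167 CPM in the 200 wells with a Hoxc10 UMI and at 47.4 in the 73 without, at median depths of 118562 and 119520 UMIs. Within a library it was higher in wells with Hoxc10 in 1 of 6 libraries that held at least 3 wells of each kind, and at p1 in 3 of 5. In e15.5 libraries 7, 8 and 9 only 3 or 4 wells lacked Hoxc10, with median depths of 28113, 17621 and 29145 UMIs, against 137188, 154523 and 114146 in the wells with it. Igfbp5 stood at 141 and 36.1 CPM pooled at e15.5 and was higher with Hoxc10 in 4 of 6 libraries, and at p1 in 1 of 5. The pooled difference of Igf1 was thus not repeated within most e15.5 libraries, where the wells compared were few and unlike in depth, and that of Igfbp5 was in libraries 8 (119 against 28.6 CPM) and 9 (125 against 15.8).

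**Figure D5:**
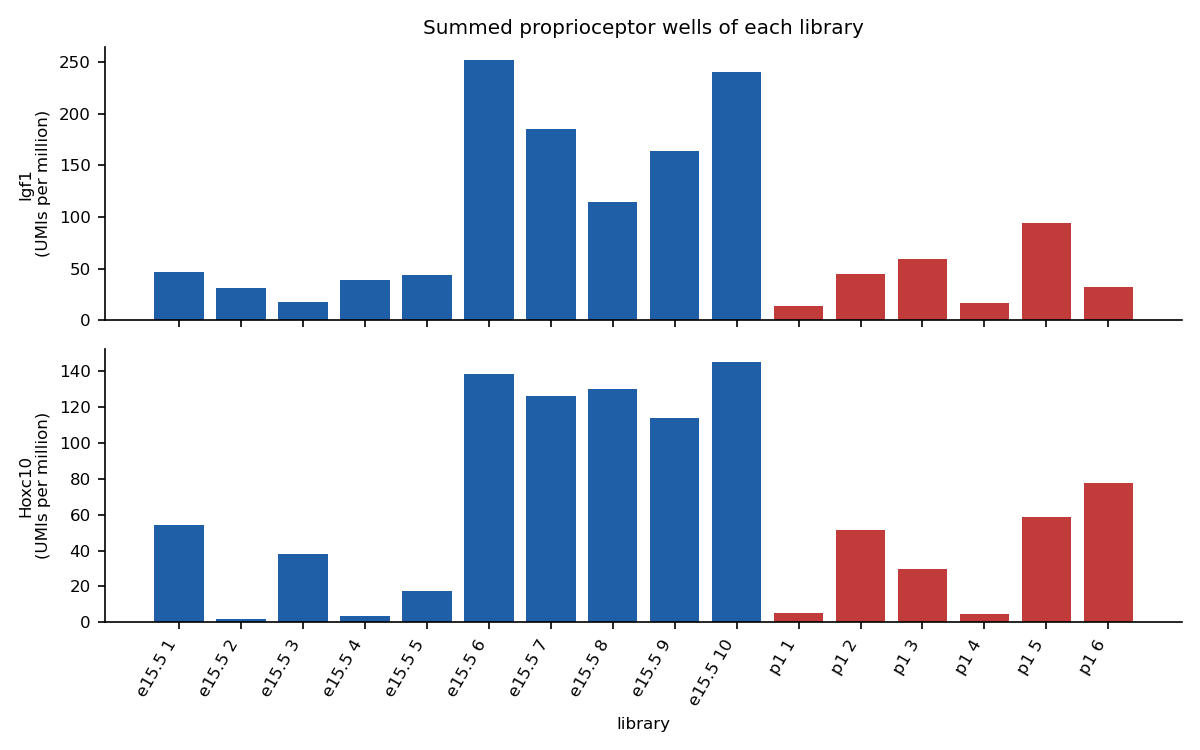
Igf1 (top) and Hoxc10 (bottom) in the summed proprioceptor wells of each library, in CPM, for 10 e15.5 libraries (blue) and 6 p1 libraries (red). The e15.5 libraries 6 to 10 are high in both, and p1 libraries 1 and 4 are low in both.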

How the data were processed

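CEL-Seq2 libraries of 96 wells were analysed from the deposited tables of raw UMI counts, made by the authors with scruff, per the labels on mm10 (GRCm38), with no filter on wells; the sources used here do not name the annotation release. No deposited value column went unused. Ensembl identifiers were matched to symbols (49326 of 49671).

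Wells with at least 10000 UMIs were classed by summed CPM of fixed markers: connective tissue, markers at 5000 or more with neuronal markers under 2000 and glial under 500; glial, 500 or more with connective tissue under 5000; neurons, 2000 or more with connective tissue under 1000 and glial under 500, split at 1000 CPM of proprioceptor markers. Classes are "like" names from markers. No doublet caller was run; wells with mixed markers stayed unassigned. Well counts within 1.5-fold of a limit were 12 to 50 of 871 at e15.5. Deposited wells carry running numbers in place of barcodes, so barcodes shared between libraries were not counted; no 2 libraries held the same counts (smallest chi-square per degree of freedom 3.73).

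Counts were summed per library and class or subset (at least 5 wells; levels at least 3) and tested in edgeR 4.0.16 (TMM, filterByExpr, quasi-likelihood test, adjusted p under 0.05); DESeq2 1.42.0 and scran 1.30.0 clusters served as alternatives. Labels do not say which animals a library came from, so p-values measure the spread between libraries. On simulated data with 200 genes changed 4-fold, 97.5% were recovered for the stage comparison and 94.0% for Gabrg1 against Tox at p1. Of the calls, 3.94% and 4.08% were false. The simulation gave each gene the spread typical of its level, so recovery can be lower for genes that vary more between libraries, such as Igf1 and Igfbp5. Same-numbered libraries of the 2 ages did not deviate together (median r -0.20, 1 of 6 above 0.1). Sums of the same library pair by construction (median r 0.22, 0.22 and 0.57 for connective tissue and for Gabrg1 against Tox at e15.5 and p1); calls that a library block changed are given beside them.

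Members and lists were chosen with earlier results of these data known. Named beside the members were up to 4 called list genes a direction and comparison by fold change, and the 10 genes most correlated with Igf1 and with Igfbp5 (libraries of at least 10 wells, genes with a UMI in at least 10% of wells). Insr, Igfbp1, Igfals and, between the ages, Pappa2 were named after their values were seen, as was the look at Hoxc10.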

Additional observations from a re-analysis of the deposited data

Results flagged for a closer look

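In 60 groups of 4 to 10 libraries (a member in a class and age), 9 had a library whose distance from its neighbour was large for the range of the group; chance alone gives about 1 such group in 20. Igfbp5 in e15.5 proprioceptors was highest in library 10 (240 CPM, next 122), the library that also decided its Gabrg1 contrast. Dlk1 in p1 proprioceptors was highest in library 4 (1.44 CPM, next 0.535), and Igfbp3 in e15.5 connective tissue in library 8 (101 CPM, next 48.8). The other 6 were in glial wells. At e15.5 Igf2 (1459 CPM, next 883) and Igfbp4 (158, next 85.1) were highest in library 2, with 6 glial wells, and Igf2r (94.3, next 49.1) in library 1, with 7. At p1 Igf2 was highest in library 2 (197 CPM, next 56.0), and Igf1 (142, next 55.1) and Igfbp3 (23.6, next 7.29) in library 3, where they rested on 6 and 1 UMIs in 3 wells.

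The wells under 10000 UMIs entered no comparison. The members summed to 5590 CPM in 89 such wells at e15.5, with 9 of 10 above the floor of 3 UMIs, and to 498 CPM in 207 such wells at p1, with 10 of 10 above it. Igf2 stood at 1976 CPM in the e15.5 wells and at 72.4 in the p1 wells.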

How the results depend on the processing

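Over libraries left out, the count of called genes ran from 7504 to 8155 for the stage comparison, from 9019 to 9690 for connective tissue, from 357 to 552 for Gabrg1 against Tox at e15.5 (605 with all; 357 without library 8) and from 28 to 241 at p1 (105 with all; 241 without library 1, 34 without library 2, 28 without library 5 and 45 without library 6). With no filter on low counts 14843 genes were called for connective tissue and 447 for Gabrg1 against Tox at p1; with at least 10 wells a sum 379 were called at e15.5. With the replicate block the counts were 6100 for the stage comparison, 9242 for connective tissue, 434 at e15.5 and 75 at p1; the stage numbers do not pair the libraries. Drawn down to 10000 UMIs, 43.2% of e15.5 and 27.3% of p1 proprioceptor wells held Igf1; as counted in wells with at least 20000 UMIs, the p1 share was 66.2%. In e15.5 Gabrg1 wells, Igf2 went from -0.19 to 0.0889 with DESeq2 and 0.35 with the replicate block, and over libraries left out ran from -1.17 to 0.0684, Igfbp2 from -1.41 to 0.0130 and Igfbp4 from -0.35 to 0.0284; at p1 Igf1r ran from -0.17 to 0.0257. None of these was called. Of the members' changes between the ages, Igf2 and H19 kept their call under every alternative. Dlk1 and Igfbp4 kept it where tested, and Igfbp2 in all but the replicate block (-1.18, edgeR adjusted p = 0.0625). With 1 library left out, Igfbp2 was tested in 11 and Igfbp4 in 10 of 16 runs. A fall was the direction open to Dlk1, Igfbp2 and Igfbp4 and largely to Igf2 and H19, as given above. Nothing is thus read from the kept calls of these members. Igf1, Igf1r, Igf2r and Igfbp5 crossed the threshold in some alternatives. The cause was not tested. The number of members without overlap between connective tissue and proprioceptors was 8 with clusters of wells or 20000 UMIs and 7 with the mitochondrial limit, which added Igf1r to the overlapping ones. Shallow p1 libraries and counts under 25 UMIs (Igfbp2, Igfbp4, Dlk1 at p1) limit these values.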
